A study of Mus musculus with 6 samples.

Results

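The genes described here encode enzymes that make or rework amino acids and carry one-carbon units. They were listed by name and function and not by a measured value, although earlier results of these data were known when the list was made. For a gene with more than 1 probe set, the brightest over all 6 arrays was used. The list holds 40 enzymes of serine and glycine, folate, methionine, cysteine and glutathione, proline, asparagine, glutamate, branched-chain and arginine metabolism. Of these, 38 were measured here with a probe set that names 1 gene, out of 22180 genes in all, and Mat2a and Pycr1 were not analysed here. The cells were splenic CD4+ T cells of female wild-type C57BL/6 mice about 8 weeks old. All cells were first activated for 24 h with antibodies to CD3 and CD28 (10 µg/mL each). They then spent a further 24 h with icilin at 100 µM, a synthetic cooling compound that opens TRPM8 and TRPA1 channels, or with a matching concentration of its solvent dimethyl sulfoxide (vehicle). Each group held 3 Affymetrix Mouse Gene 2.0 ST arrays, and both groups drew on the same 3 mice. The medium of both groups was RPMI 1640 with 2 mM L-glutamine, a nonessential amino acid supplement, 1 mM pyruvate, 10% serum and 500 µM 2-mercaptoethanol. Values are log2 expression levels, on which each step of 1 is a doubling, and they are compared between groups for 1 gene at a time, apart from a set of paired enzymes whose difference within an array is compared between groups.

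Activated T cells grow on serine, which they build from a glycolytic intermediate or import. Serine gives its side-chain carbon to folate, and folate carries it through mitochondria and cytosol into purines, thymidylate and methionine. Homocysteine from the methionine cycle can pass through the transsulfuration enzymes CBS and CTH to cysteine, which limits the synthesis of glutathione. Many of these enzyme genes are textbook targets of ATF4, a factor induced when amino acids run short, which binds a C/EBP-ATF response element.

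The defining markers of the labelled cell type were bright. Cd3d, Cd3e, Cd3g, Cd4, Cd5 and Thy1 had group means of 9.0 (Cd3d) to 11.66 (Cd3e). By limma, 0 of these 6 T cell markers passed the test, with 0 at an unadjusted p under 0.05. Cd5 (-0.13) and Thy1 (-0.12) had all icilin arrays below all vehicle arrays, as in 10.5% of all genes. Of 27 measured markers of other cell types, the B cell gene Ms4a1 rose (4.07 to 5.09) while H2-Ab1, an MHC class II gene, was the 1 that fell (10.19 to 8.96). The summed log2 level of the 4 B cell markers ran from 19.2 to 19.8 in vehicle and 20.5 to 20.8 in icilin arrays, and that of 6 dendritic cell markers from 32.0 to 32.6 and 30.5 to 31.0. These sums moved mostly with Ms4a1 (1.01) and H2-Ab1 (-1.22). The B cell genes Cd79a, Cd79b and Pax5 differed by 0.09, -0.01 and 0.21. From the dendritic cell list, H2-Aa, Itgax and Xcr1 differed by -0.04, 0.06 and -0.01, and Flt3 and Siglech by -0.22 and -0.16. Pax5 had all icilin arrays above all vehicle arrays and Siglech had all below, and none of these genes passed the adjusted p. For 5 CD8 and natural killer markers the sums ran from 21.0 to 21.9 and 20.8 to 21.4. These sums hold opposite differences. Cd8b1 differed by 0.39, with all icilin arrays above, and Klrb1c and Klrk1 by -0.52 and -0.14, with all below. Cd8a (0.01) and Ncr1 (-0.08) overlapped, and none of the 5 passed the adjusted p. Csf1r (-0.26), Pf4 (-0.49) and Pecam1 (-0.14) had all icilin arrays below and Itgam (0.21) all above, and none passed the adjusted p. None of the 6 myeloid markers was brighter than the median gene, and the part of other cells in the results below was not tested. In bulk RNA, fewer cells of a type and less RNA per cell cannot be told apart.

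With icilin, 3 of the 38 enzyme genes rose and 0 fell. A gene counts as risen or fallen at an adjusted p under 0.1 by limma together with a change of 1.5-fold or more, the limits stated for the study. Over all genes, 1.4% were called by the same limits, 0.37% higher and 1.03% lower. The 3 were Aldh1l2, the mitochondrial formyl-tetrahydrofolate dehydrogenase, Cth, the last enzyme of cysteine synthesis, and Chac1, which cleaves glutathione. On the adjusted p alone, 12 members passed, where 5.28% of all genes did. Icilin was the higher group in 11 of them (2.27% of all genes) and the lower in 1 (3.0%). The median log2 fold change of the 38 was 0.16, against 0.01 over all genes, and 25 of 38 (65.8%) lay above 0, against 53.0%. With the 3 called genes left aside, the median of the other 35 was 0.10. On 21 members all icilin arrays lay above all vehicle arrays (13.6% of all genes), on 3 they lay below (10.5%) and on 14 the groups overlapped.

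**Figure D1:**
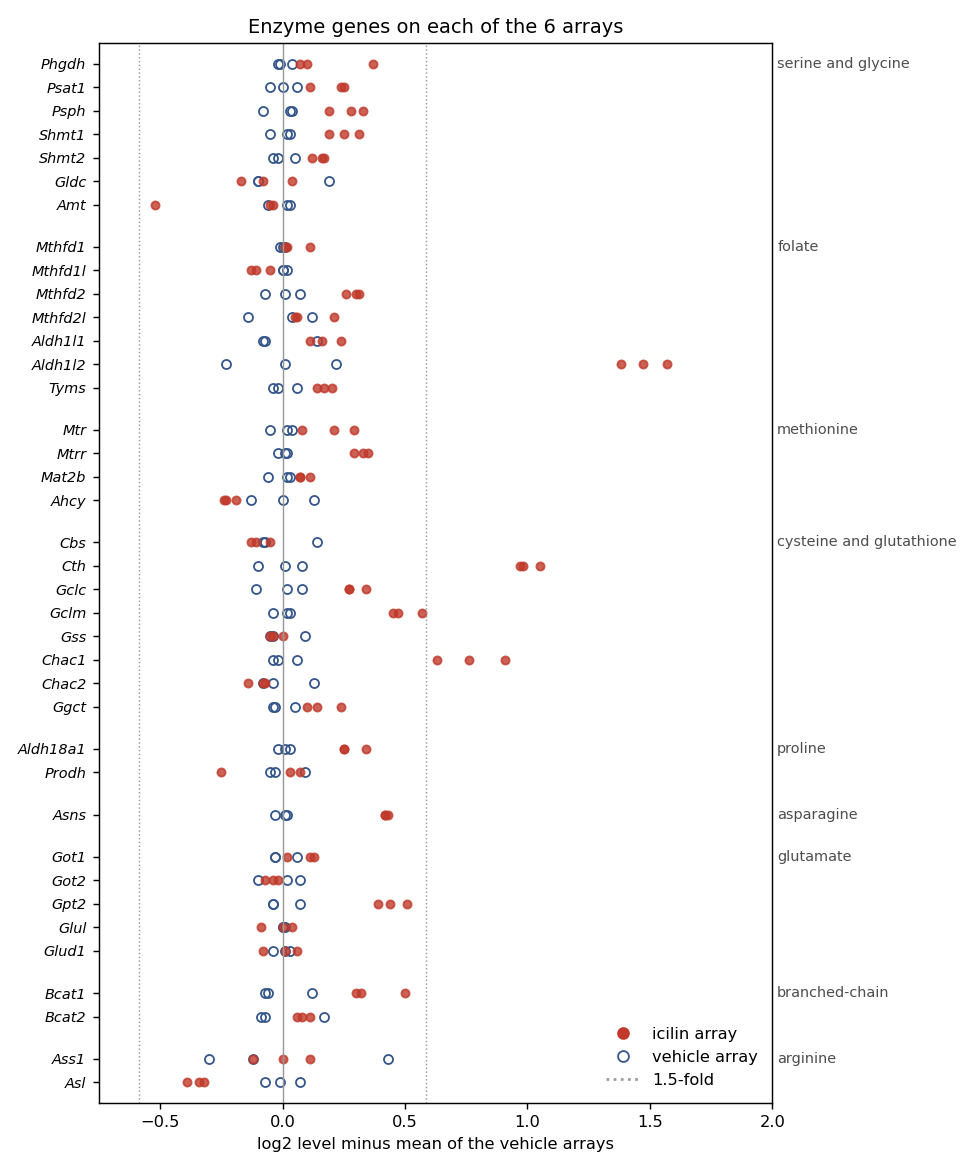
Each of 38 enzyme genes on each array, as the log2 level minus the gene's mean over the 3 vehicle arrays, grouped by branch, with dotted lines at 1.5-fold in either direction. Aldh1l2, Cth and Chac1 have all 3 icilin arrays beyond the upper line, and no gene has all 3 beyond the lower line.

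**Figure D2:**
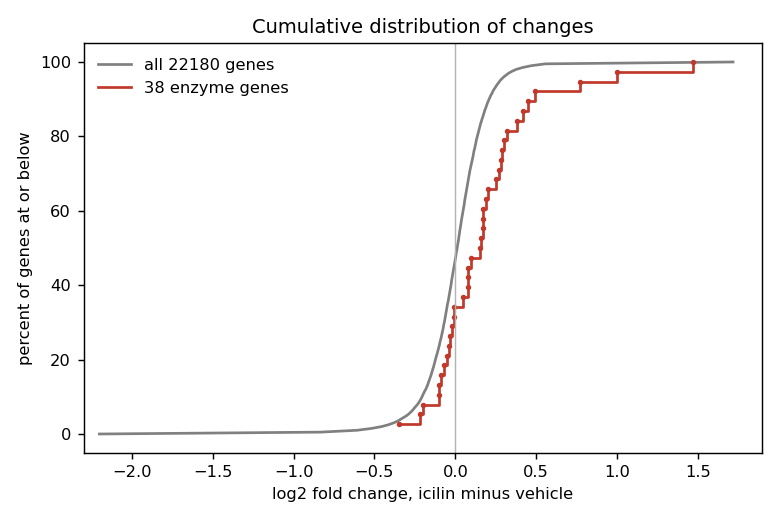
Percent of genes (vertical axis) at or below a given log2 fold change, icilin minus vehicle (horizontal axis), for all 22180 genes and for the 38 enzyme genes. Over most of its length the curve of the enzyme genes lies to the right of the other, with medians of 0.16 and 0.01. It ends at 1.47 with Aldh1l2, and the curve of all genes ends at 1.72.

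Promoter sequence is shown for the members whose upstream region holds the ATF4 type of element, because 1 of the 3 risen genes is among them. In RefSeq windows (GRCm38.p6) from 250 bases before to 50 after a transcription start, 36 of the 40 listed enzymes had an entry, all but Aldh1l2, Asl, Cth and Gclc. The letters TGATGNAA, searched on both strands, occurred in the windows of 4 of these 36 genes (11.1%), Asns, Chac1, Got1 and Pycr1. They occurred in 3.9% of 16990 genes on the array with a window, which leave out Pycr1 and Mat2a of the 36. Each line gives 100 bases read 5′ to 3′ on the strand of the gene, plus for Chac1 and minus for Asns, Got1 and Pycr1, with the match in capitals.
Chac1, chr2:119351003-119351102: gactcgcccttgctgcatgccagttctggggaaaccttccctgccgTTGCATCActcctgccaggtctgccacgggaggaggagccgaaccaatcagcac
Asns, chr6:7693210-7693309: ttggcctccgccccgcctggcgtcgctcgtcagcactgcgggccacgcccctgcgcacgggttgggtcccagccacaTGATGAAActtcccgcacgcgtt
Got1, chr19:43524654-43524753: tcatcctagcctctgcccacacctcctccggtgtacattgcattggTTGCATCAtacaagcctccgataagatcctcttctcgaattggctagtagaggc
Pycr1, chr11:120643798-120643897: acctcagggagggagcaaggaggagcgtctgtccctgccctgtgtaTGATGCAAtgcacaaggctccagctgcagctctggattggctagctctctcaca
The match began 193 bases before the start of Chac1, 23 before that of Asns, 102 before that of Got1 and 103 before that of Pycr1. In Chac1 and Got1 it lies on the opposite strand and so reads TTGCATCA here, and in Asns its N is an A. Chac1 was higher with icilin by both limits and Asns on the adjusted p alone, short of 1.5-fold. Got1 did not pass the test (0.08 ± 0.07), and Pycr1 was not analysed here. Mthfd2, Mtrr, Gclm, Aldh18a1, Gpt2 and Bcat1 also passed the adjusted p higher, and their windows held no such match. Whether the element goes with the changes was not tested. The E-box CACGTG occurred in windows of Aldh18a1, Ass1, Cbs and Tyms (4 of 36, 11.1%, against 9.2% of genes on the array). The antioxidant response element, TGAC and GCA with any 3 bases between them, occurred in those of Amt, Asns and Psph (3 of 36, 8.3%, against 3.3%). None of the 3 motifs overlapped another in these windows. A match describes the letters and does not show that a factor binds there.

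**Figure D3:**
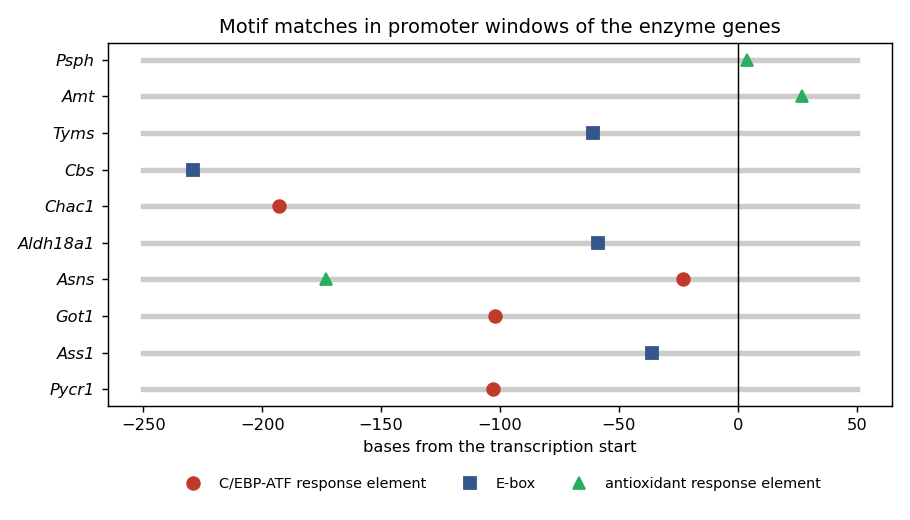
Matches to the 3 motifs (symbols) in the promoter windows (grey bars) of the 10 enzyme genes that hold any, by distance in bases from the transcription start, which is the vertical line. C/EBP-ATF matches lie between 193 and 23 bases upstream in Chac1, Asns, Got1 and Pycr1.

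None of the 7 serine and glycine genes rose or fell by limma, and 4 of the 7 were higher at an unadjusted p under 0.05, where 9.09% of all genes were higher and 8.05% lower. SAM, the study's own test, called 0 of them as well. Levels of Phgdh, which takes the first step of serine synthesis, were 8.68, 8.63 and 8.62 on the vehicle arrays and 9.01, 8.71 and 8.74 on the icilin arrays. The groups did not overlap, and 1 icilin array stood above the other 2, with a difference of 0.17 ± 0.09 (SE, adjusted p = 0.398). Psat1, the second enzyme, stood at 9.94, 10.0 and 9.89 in vehicle and 10.18, 10.05 and 10.19 in icilin (0.20 ± 0.07, adjusted p = 0.215). For Psph, the last enzyme, the values were 8.18, 8.06 and 8.17 against 8.47, 8.42 and 8.33 (0.27 ± 0.07, adjusted p = 0.116). All 3 serine synthesis genes thus had every icilin array above every vehicle array, as did 13.6% of all genes, and none passed the adjusted p. The hydroxymethyltransferases, which turn serine into glycine and load folate, differed by 0.25 ± 0.07 (cytosolic Shmt1, adjusted p = 0.113) and 0.15 ± 0.06 (mitochondrial Shmt2, adjusted p = 0.276). Both were also without overlap. Of the glycine cleavage genes, Gldc differed by -0.07 (95% interval -0.31 to 0.17) and Amt by -0.20 (-0.52 to 0.11), and neither passed the test. Both were dimmer than the median gene, and both overlapped between groups.

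Of 7 folate genes, 1 rose, as did 0.37% of all genes, and 6 did not pass both limits. Aldh1l2 oxidises 10-formyl-tetrahydrofolate in mitochondria, releasing carbon dioxide and forming NADPH (Entrez gene 216188). Its level was 5.37, 5.13 and 5.58 on the vehicle arrays and 6.74, 6.83 and 6.93 on the icilin arrays. The lowest icilin array lay above the highest vehicle array by more than the whole range of either group. The rise was 1.47 ± 0.12 (SE), which is 2.77-fold with a 95% interval of 2.28 to 3.37 (adjusted p = 0.00178). By size it was the third largest among the genes that rose. Mthfd2, the mitochondrial dehydrogenase that is induced on T cell activation, stood at 9.93, 10.01 and 10.07 in vehicle and 10.3, 10.31 and 10.26 in icilin. At 0.29 ± 0.07 it met the adjusted p (0.0778) but not the fold limit. Mthfd1l, which releases formate from the mitochondrial pathway, had a difference of -0.10 (adjusted p = 0.457), and cytosolic Mthfd1 one of 0.05 (adjusted p = 0.753). Tyms, which makes thymidylate, differed by 0.17 ± 0.06 (adjusted p = 0.233), Aldh1l1, the cytosolic counterpart of Aldh1l2, by 0.17 ± 0.08 (adjusted p = 0.353), and Mthfd2l by 0.10 ± 0.09 (adjusted p = 0.622).

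**Figure D4:**
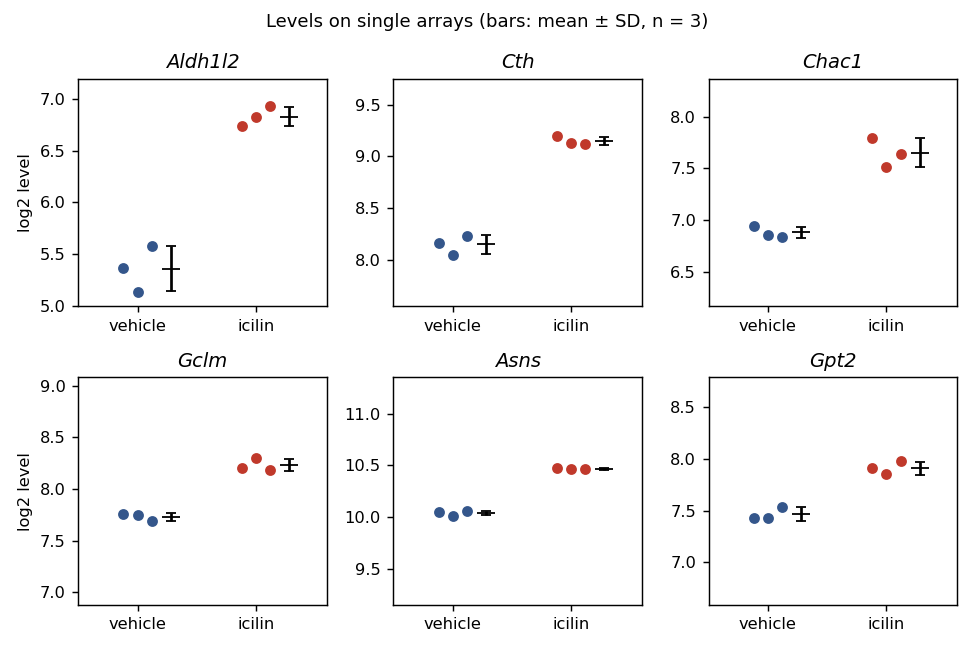
Log2 levels of 6 enzyme genes on the single arrays (points), with mean ± SD of 3 arrays (bars), in panels whose axes all span the same distance. Aldh1l2, Cth and Chac1 passed both limits, and Gclm, Asns and Gpt2 passed the adjusted p with differences of 0.42 to 0.49.

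Of the 4 measured methionine genes, 0 rose or fell by limma or SAM. Taken unadjusted, p was under 0.05 for 3 of them, of which 2 were higher (9.09% of all genes were higher and 8.05% lower). Mtrr, which reactivates methionine synthase, had values of 8.18, 8.15 and 8.19 in vehicle and 8.52, 8.46 and 8.5 in icilin. Arrays within a group lay close together, and the groups differed by 0.32 ± 0.06 (adjusted p = 0.0369), short of 1.5-fold. Methionine synthase itself, Mtr, differed by 0.19 ± 0.08 (adjusted p = 0.27), and Mat2b, a regulatory subunit of S-adenosylmethionine synthesis, by 0.08 ± 0.06 (adjusted p = 0.553). Ahcy, which clears S-adenosylhomocysteine, differed by -0.22 ± 0.08 (adjusted p = 0.233) on its brighter probe set and by 0.30 ± 0.21 on a dimmer one. The mean of both probe sets gave 0.04, so that no direction can be given for it.

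Of 8 cysteine and glutathione genes, 2 rose (0.37% of all genes did) and 6 did not pass both limits. Cth, which splits cystathionine to release cysteine (Entrez gene 107869), stood at 8.16, 8.05 and 8.23 on the vehicle arrays and 9.2, 9.13 and 9.12 on the icilin arrays. The rise was 1.00 ± 0.07, or 2.0-fold (95% interval 1.78 to 2.26, adjusted p = 0.00126). Cbs, the enzyme that makes cystathionine one step earlier, overlapped between groups at 4.97 ± 0.13 (SD, n = 3) and 4.87 ± 0.04, a difference of -0.09 (95% interval -0.28 to 0.10). The signal of Cbs was only a little above that of the median gene, which limits this comparison. Chac1, which degrades glutathione in the cytosol (Entrez gene 69065), stood at 6.94, 6.86 and 6.84 in vehicle and 7.79, 7.51 and 7.64 in icilin. The rise was 0.77 ± 0.09, or 1.7-fold (95% interval 1.48 to 1.96, adjusted p = 0.00594).

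Both subunits of glutamate-cysteine ligase, the first and limiting enzyme of glutathione synthesis, passed the adjusted p short of 1.5-fold. The modifier subunit Gclm had values of 7.76, 7.75 and 7.69 in vehicle and 8.2, 8.3 and 8.18 in icilin (0.49 ± 0.07, adjusted p = 0.0113). The catalytic subunit Gclc had 8.15, 8.21 and 8.02 against 8.47, 8.4 and 8.4 (0.30 ± 0.07, adjusted p = 0.0897). In both genes every icilin array lay above every vehicle array, as in 13.6% of all genes. Gss, which completes glutathione, did not pass and overlapped (-0.03 ± 0.07, adjusted p = 0.849). Ggct, a cyclotransferase that acts on gamma-glutamyl amino acids, differed by 0.16 ± 0.07 (adjusted p = 0.288), and Chac2 by -0.10 ± 0.08 (adjusted p = 0.579).

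In the remaining branches 0 of 12 measured genes rose or fell by limma and by SAM. Without the fold limit 5 passed the adjusted p, 4 higher and 1 lower (2.27% and 3.0% of all genes). Taken unadjusted, p was under 0.05 for these 5 and for none of the other 7 (9.09% of all genes higher, 8.05% lower). Asns, which makes asparagine from aspartate and glutamine, stood at 10.05, 10.01 and 10.06 on the vehicle arrays and 10.47, 10.46 and 10.46 on the icilin arrays. Both groups were tight, with SD of 0.02 and 0.01, and the difference was 0.42 ± 0.06 (1.34-fold, adjusted p = 0.013). Its promoter is the one shown above with the match nearest to the start. Aldh18a1, which takes the first steps from glutamate to proline and ornithine, had 9.57, 9.6 and 9.62 against 9.84, 9.84 and 9.93 (0.28 ± 0.06, adjusted p = 0.0744). Prodh, which breaks proline down, overlapped between groups (-0.05 ± 0.10, adjusted p = 0.843).

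Among the 5 glutamate genes, 1 passed the adjusted p and 4 overlapped between groups. Of all genes, 5.28% passed and 24.1% did not overlap. Gpt2, the mitochondrial alanine aminotransferase, stood at 7.43, 7.43 and 7.54 in vehicle and 7.91, 7.86 and 7.98 in icilin (0.45 ± 0.07, 1.36-fold, adjusted p = 0.02). Differences of the others lay close to 0. The aspartate aminotransferases Got1 and Got2 differed by 0.08 (95% interval -0.07 to 0.24) and -0.04 (-0.20 to 0.13), glutamine synthetase Glul by -0.02 (-0.17 to 0.13) and glutamate dehydrogenase Glud1 by -0.01 (-0.17 to 0.15). Glul and Glud1 turned to 0.01 and 0.02 when each array was centred on its median.

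Of the branched-chain aminotransferases, the cytosolic Bcat1 stood at 8.04, 8.03 and 8.22 in vehicle and 8.4, 8.6 and 8.42 in icilin, which is 0.38 ± 0.09 (adjusted p = 0.0804), short of 1.5-fold. The mitochondrial Bcat2 overlapped (0.08 ± 0.09, adjusted p = 0.703). The arginine branch held the 1 member that was lower. Asl, which releases arginine from argininosuccinate, had 7.86, 8.0 and 7.92 against 7.54, 7.61 and 7.59, or -0.35 ± 0.07 (adjusted p = 0.0409), short of 1.5-fold. Ass1, the enzyme before it, was the most uneven member, at 7.01, 6.28 and 6.46 in vehicle and 6.58, 6.46 and 6.69 in icilin (-0.01 ± 0.18, adjusted p = 0.992). Without vehicle replicate 1 its difference was 0.21.

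Aldh1l2, Cth and Chac1 were also called under each of the 16 alternatives run, among them SAM. Of these alternatives, no fold limit and an adjusted p of 0.05 reuse the main fit and could not lose them. Each of the 3 genes has 1 probe set, so the settings for probe sets left its fold change unchanged. The smaller differences were less firm. Of the 12 members past the adjusted p without the fold limit, 6 also passed it with any 1 array left out: Aldh1l2, Cth, Chac1, Gclm, Asns and Gpt2. Mthfd2, Gclc and Aldh18a1 passed with no array left out and lost it in all 6 such fits (adjusted p 0.122 to 0.237). Bcat1, Mtrr and Asl kept it in 1 of 6 each, with adjusted p from 0.0714 to 0.23 over those fits. The differences of the 12 kept their sign throughout. The count of 12 was 6 without any 1 of the icilin arrays or vehicle replicate 2. It was 8 without vehicle replicate 1 and 7 without vehicle replicate 3. No share of all genes past the adjusted p alone was computed for those fits.

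Enzymes that come as near relatives in different compartments or with different roles were set side by side in 7 pairs, as the log2 difference between both genes within each array. Aldh1l2 minus Aldh1l1 was 0.90, 0.44 and 1.1 on the vehicle arrays and 2.04, 2.04 and 2.26 on the icilin arrays, a change of 1.30. The signal of Aldh1l1 was only a little above that of the median gene, which limits this pair. Chac1 minus Chac2 was 0.98, 0.69 and 0.84 against 1.89, 1.54 and 1.68, a change of 0.87. The changes of the other 5 pairs were smaller: 0.18 for Mthfd2 minus Mthfd2l, -0.10 for Shmt2 minus Shmt1, -0.15 for Mthfd1l minus Mthfd1, -0.12 for Got2 minus Got1 and -0.30 for Bcat2 minus Bcat1. In 5 pairs the groups did not overlap, which gives p = 0.1 in a two-sided exact permutation test, the smallest that 3 against 3 arrays allow (0.14 adjusted over 7 pairs). Taken singly, 24.1% of all genes had no overlap between groups in either direction, and no such share was computed for pairs. Got2 with Got1 and Bcat2 with Bcat1 overlapped, with exact permutation p of 0.3 and 0.2. This test could not pass 0.05 in any pair.

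**Figure D5:**
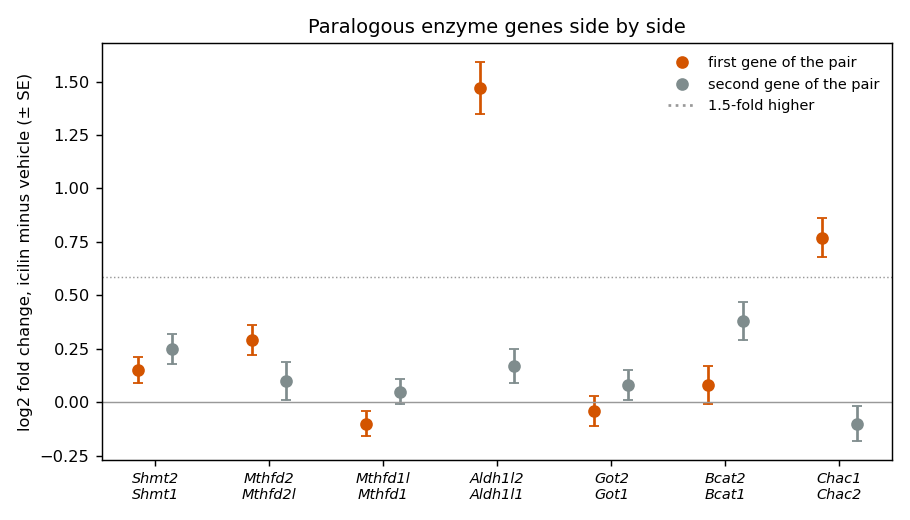
Log2 fold change, icilin minus vehicle, with SE, for both genes of 7 pairs of related enzymes (first-named gene in orange, second in grey), with a dotted line at 1.5-fold higher. Aldh1l2 (1.47) and Chac1 (0.77) lie above the line while their partners stand at 0.17 and -0.10. Aldh1l1 was only a little brighter than the median gene.

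Other genes of the same pathways were taken from lists by function. Of 74 measured, 1 rose and 1 fell (0.37% and 1.03% of all genes). Without the fold limit 5 passed higher and 2 lower (2.27% and 3.0% of all genes). Their median was 0.04, against 0.01 over all genes. Slc7a11, the transporter that imports cystine for glutathione, stood at 4.94, 4.55 and 4.85 in vehicle and 6.42, 6.31 and 6.42 in icilin, a rise of 1.6 ± 0.11 (adjusted p = 0.00102). With both of its probe sets averaged the rise was 0.83, so the dimmer probe set changed far less than the one used. Its own value is not given here. Ggt7, of the gamma-glutamyltransferase family, had 6.07, 6.06 and 5.91 against 5.26, 5.22 and 5.39 and fell by 0.72 ± 0.08 (adjusted p = 0.00539). These were the called genes among 13 further cysteine and glutathione genes. Among 18 further serine, glycine and folate genes, Slc25a32, which brings folate into mitochondria, was higher (0.34 ± 0.06, adjusted p = 0.0316). Sfxn3, of the mitochondrial serine carrier family and named after its value was seen, was lower (-0.42 ± 0.08, adjusted p = 0.042). Both were short of 1.5-fold.

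In the other lists no gene passed both limits by limma, and the gene with the smallest p in each is given here. Asrgl1, an asparaginase (9 genes), differed by 0.36 ± 0.06 (adjusted p = 0.0318), and Aldh4a1, which finishes proline breakdown (10 proline and arginine genes), by 0.31 ± 0.06 (adjusted p = 0.049). Bckdhb, a subunit of the branched-chain ketoacid dehydrogenase (10 genes), differed by 0.38 ± 0.08 (adjusted p = 0.0671), and Ahcyl2 (14 methionine and polyamine genes) by 0.22 ± 0.08 (adjusted p = 0.227). Together these 4 lists held 43 measured genes, of which SAM called 0. An unadjusted limma p was under 0.05 for 7 that were higher and 2 that were lower (9.09% and 8.05% of all genes).

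Regulators of the amino acid response were measured as 19 genes, of which 5 rose and 0 fell (0.37% and 1.03% of all genes). On the adjusted p alone, 9 were higher and 1 lower (2.27% and 3.0% of all genes). This list too was made with earlier results of these data known. The largest rises were those of the pseudokinase gene Trib3 (1.00 ± 0.07) and the transcription factor genes Cebpb (0.76 ± 0.12), Atf5 (0.72 ± 0.07) and Ddit3 (0.65 ± 0.07), with adjusted p from 0.00105 to 0.0234. Nupr1, the fifth, had 0.60 ± 0.10 (adjusted p = 0.0228) and was under 1.5-fold without icilin replicate 2 or vehicle replicate 2 or 3 (0.55 to 0.58). Atf4 itself, named after its value was seen, stood at 9.57, 9.41 and 9.45 in vehicle and 9.89, 9.92 and 9.89 in icilin. It differed by 0.43 ± 0.07 (adjusted p = 0.0215), short of 1.5-fold. Nupr1 and the genes that follow were chosen in the same way. Cebpg (0.36 ± 0.07, adjusted p = 0.0324) and Sesn2 (0.52 ± 0.11, adjusted p = 0.0543) were higher and Vldlr was lower (-0.56 ± 0.08, adjusted p = 0.0128), all short of 1.5-fold. Atf3 differed by -0.18 ± 0.07 (adjusted p = 0.23), with all icilin arrays below all vehicle arrays, as in 10.5% of all genes. Nfe2l2, which encodes NRF2, a regulator of Gclc and Gclm, differed by 0.24 ± 0.06 (adjusted p = 0.0991), Myc by -0.12 ± 0.06 (adjusted p = 0.385) and Eif2ak4, the amino acid sensing kinase, by -0.10 ± 0.09 (adjusted p = 0.646). ATF4 activity is set largely by translation, so its RNA level is a partial measure of it.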

How the data were processed

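Expression was measured on 6 Affymetrix Mouse Gene 2.0 ST arrays, 3 per group, each from 0.25 µg of RNA (integrity number 8 or more, per the labels' protocols). The deposited values are log2 levels that the authors made by Robust Multi-Array Average (RMA), per the series design text, and were used as deposited, with array medians of 4.24 to 4.30. RMA makes array distributions alike, so a change shared by most genes would not show, and it can compress changes of dim genes. Software version and build are not given in the sources used here. Of 41345 probe sets, 23521 carry 1 gene symbol in the platform annotation, and the brightest per gene was kept (22180 genes).

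Genes were compared by lmFit and eBayes of limma 3.58.1, under R 4.3.3 (two-sided, with degrees of freedom of 4 residual plus 3.07 prior) and Benjamini-Hochberg adjustment over all genes. Called means an adjusted p under 0.1 and 1.5-fold, the study's limits. The number of arrays limits precision (median SE 0.09, 0.07 for the members). No label ties replicate numbers to mice, so the fit is unpaired, and p-values measure only the spread between these samples, which may be technical. limma and SAM, written anew with 20 arrangements, were tested on simulated data. The members and lists were chosen with earlier results of these data known. The text names all measured members, up to 4 called genes of each further list (with none called, the smallest p), the second gene of each pair, and markers. The alternatives are those in the closing section. Promoters come from RefSeq. Of 1670 pairs of overlapping opposite-strand windows, 1670 read as reverse complements. Figures were made with matplotlib 3.10.9.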

Additional observations from a re-analysis of the deposited data

How the results depend on the processing

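Of 16 alternatives, 15 called the same 3 members and no other: replicate block, trend with robust variances, median centring, quantile normalization, dim genes left out, averaged probe sets, every probe set on its own, each of the 6 arrays left out, SAM and an adjusted p of 0.05. An adjusted p of 0.05 and no fold limit both reuse the main fit and could not lose these 3. Without the fold limit the counts were 12 members and 17 of the further pathway and regulator genes (7 with it). Of all genes, 1170 passed (311 with it). With both limits and 1 array left out, the counts were 3 members, 6 to 8 further genes and 279 to 328 of all genes. The 12 members past the adjusted p alone were 6 with the replicate block and 6 with every probe set fitted on its own. They were 19 with trend and robust variances, 19 with dim genes left out (36 members tested) and 6 to 8 with 1 array left out. No share of all genes past the adjusted p alone was computed for these settings. The cause of these shifts was not tested. With the replicate number as a block, 283 of all genes were called, and of the further pathway genes Slc25a32, Asrgl1, Aldh4a1 and Bckdhb no longer passed the adjusted p (0.129, 0.129, 0.161 and 0.145). Deviations of same-numbered arrays correlated at -0.022 to -0.005, and 0 of 3 icilin arrays correlated best with its own number, so the numbers were not taken as pairs.

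Signs turned for 8 members, none of them past the test. With 1 array left out the differences ran from -0.13 to 0.03 for Gldc, -0.06 to 0.01 for Gss, -0.11 to 0.05 for Prodh, -0.09 to 0.00 for Got2, -0.05 to 0.02 for Glul, -0.04 to 0.03 for Glud1 and -0.16 to 0.21 for Ass1. Median centring gave 0.01 for Glul, 0.02 for Glud1 and 0.02 for Ass1, and averaged probe sets gave 0.06 for Glul and 0.04 for Ahcy, again with the cause not tested. The changes of the 7 pairs kept their sign in all settings run. Median centring and the replicate block could not alter these differences, and averaged probe sets could alter only Got2 minus Got1. Low signal limits Gldc and Amt, which were dimmer than the median gene. Aldh1l1, Cbs and Prodh were little brighter than it, at percentiles of 51.0, 54.7 and 54.6 by mean level. The stromal marker Col1a1 stood at 55.1, so low signal may limit these genes as well. Vehicle means of Slc7a11 (4.78) and Ms4a1 (4.07) lay below that of Col1a1 (4.98), so low signal may limit the size of their rises.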

Other observations

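Grouped by compartment after their values were seen, 13 members encode mitochondrial and 25 other enzymes. Among the mitochondrial ones 1 rose (Aldh1l2) and 4 passed the adjusted p without the fold limit, all higher (Aldh1l2, Mthfd2, Aldh18a1 and Gpt2), with a median log2 fold change of 0.08. Among the others 2 rose (Cth and Chac1) and 7 passed higher and 1 lower, with a median of 0.17. Over all genes 0.37% rose, 2.27% passed higher and 3.0% passed lower, with a median of 0.01. For 4 members the array held a further probe set beside the one used, and none of these passed both limits: Glul at 0.15 ± 0.09, Got2 at -0.17 ± 0.11, Ahcy at 0.30 ± 0.21 and a probe set shared by Tyms and its pseudogene at 0.12 ± 0.20. Their signals were dimmer than those used, with vehicle means of 2.34, 4.65, 5.05 and 3.30.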
